A study of Mus musculus with 9 samples.

Results

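The 9 genes described here encode enzymes or enzyme subunits that break down valine, isoleucine and propionate in the mitochondrial matrix: Acad8, Acadsb, Hibch, Hibadh, Aldh6a1, Pcca, Pccb, Mcee and Acat1. They were named as a pathway with earlier results of these arrays known, and each was measured by a probe set annotated to that gene alone. Where a gene had several such probe sets, the one used was chosen by its brightness, the mean log2 value over the 9 arrays, which among the 9 genes affected only Hibadh. They are 9 of 18820 genes measured in this way. RNA of the right ventricle was hybridised to 1 Affymetrix mouse gene array per animal, and levels are log2 intensities after robust multiarray averaging (RMA), so that a difference of 1 is a doubling.

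All mice were female C57BL/6 animals, aged 8 weeks on arrival and 10 weeks at the first injection. The MCT + NI group (mice 615, 617 and 619) and the MCT group (mice 640, 641 and 644) received 600 mg/kg monocrotaline (MCT) under the skin every week for 8 weeks, and the sham group (mice 620, 624 and 625) received saline. Monocrotaline is a plant alkaloid that injures the vessels of the lung and is used to load the right heart. MCT + NI mice ate the nutritional intervention (NI), an isocaloric diet high in protein, leucine, fish oil and oligosaccharides, while MCT and sham mice ate the standard AIN-93M diet. The supplement of the study reports that MCT + NI mice ate less food in total than MCT or sham mice. Diets began 2 weeks before the injections according to the labels, and the methods give a shorter period. No group ate the intervention without monocrotaline, and the methods state that the MCT and MCT + NI mice on arrays were matched for severity of disease.

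Valine and isoleucine, like leucine, first lose their amino group and are then committed to breakdown by the branched-chain ketoacid dehydrogenase. Valine and isoleucine carbon afterwards passes through a chain of dehydrogenases, hydratases and a hydrolase or thiolase and arrives at propionyl-CoA, which is carboxylated and rearranged to succinyl-CoA for the tricarboxylic acid cycle. The heart can oxidise these amino acids, and its enzymes for them are rich in cardiomyocyte mitochondria.

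Promoter sequences are shown for Pccb and Mcee, since both passed the test in MCT mice, and for Aldh6a1, which had the widest mean difference of the 9 genes. Each is a RefSeq window of 250 bases before to 50 bases after an annotated start in GRCm38.p6, written 5′ to 3′ on the strand of the gene. Capitals mark GGGTGG, which is CCACCC (a KLF motif) on the other strand, in Aldh6a1 (chr12:84450975-84451274, minus strand), GCGCATGC (the core of the NRF1 motif) in Pccb (chr9:101034835-101035134, minus strand) and CCGCCC, which is the GC box GGGCGG on the other strand, in Mcee (chr7:64392372-64392671, plus strand).
Aldh6a1: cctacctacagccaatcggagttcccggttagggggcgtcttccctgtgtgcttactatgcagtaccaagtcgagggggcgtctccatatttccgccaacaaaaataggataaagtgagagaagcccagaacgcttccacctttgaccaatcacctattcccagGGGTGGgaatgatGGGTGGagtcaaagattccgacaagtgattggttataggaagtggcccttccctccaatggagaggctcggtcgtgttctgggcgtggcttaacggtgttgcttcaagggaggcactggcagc
Pccb: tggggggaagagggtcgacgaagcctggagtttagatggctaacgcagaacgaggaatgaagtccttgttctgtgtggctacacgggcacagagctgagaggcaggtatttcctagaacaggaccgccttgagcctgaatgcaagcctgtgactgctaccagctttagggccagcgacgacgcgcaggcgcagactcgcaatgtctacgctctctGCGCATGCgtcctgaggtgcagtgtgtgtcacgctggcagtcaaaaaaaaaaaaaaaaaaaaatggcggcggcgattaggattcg
Mcee: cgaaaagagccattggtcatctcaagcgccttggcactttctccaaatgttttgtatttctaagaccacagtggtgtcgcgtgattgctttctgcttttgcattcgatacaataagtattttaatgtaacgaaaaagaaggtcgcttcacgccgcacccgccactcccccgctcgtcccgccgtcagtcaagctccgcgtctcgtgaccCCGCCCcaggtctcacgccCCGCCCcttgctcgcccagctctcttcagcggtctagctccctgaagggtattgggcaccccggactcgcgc

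RefSeq promoters were matched for 8 of the 9 genes, that is for all but Acat1, and motifs were searched on both strands without allowing mismatches. Aldh6a1 and Pcca had more than 1 window, giving 10 windows in all. A gene was counted if any of its windows matched, whereas the shares of all promoters are per window. CCACCC was found in 3 of the 8 (Acad8, Aldh6a1 and Pcca), while 31.5% of all 32851 promoters of this length held it. The estrogen-related receptor motif AAGGTCA (4.72% of all promoters), its longer form TCAAGGTCA (0.423%, which contains the shorter one), the E-box CACGTG (7.15%) and the D-box TTATGTAA (0.938%) were in none of the 8. Other motifs were picked after the sequences had been read: GCGCATGC was in Pccb only (2.71% of all promoters), AGGTCA, which overlaps AAGGTCA, in 3 (16.3%), CCAAT in 5 (37.4%) and GGGCGG in 6 (35.7%). By window, CCACCC and AGGTCA were each in 4 of 10, CCAAT in 7 and GGGCGG in 6. The AGGTCA match of Aldh6a1 lay in a window not shown here. A match describes letters and not a bound site.

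The first question was how the 9 genes differed in the right ventricle of MCT mice compared to sham mice. The mean of each of the 9 was lower in MCT mice, by 0.05 to 0.31 on the log2 scale, with a median difference of -0.14 against -0.02 over all genes tested. A negative difference was found for 55% of all genes. In the fit across all genes, 3 of the 9 fell at an adjusted p under 0.05, namely the propionyl-CoA carboxylase subunit Pccb, the epimerase Mcee and the thiolase Acat1. The background for such a call was 1.61% of all genes lower and 4.65% higher. The 9 genes were bright, with mean levels at percentiles 81.3 to 99.4 of all genes. In a fit limited to genes at or above the median level of all probe sets, 3.88% of genes were called lower. MCT and sham mice did not overlap, with MCT lower, for 8 of the 9, against 10.2% of all genes. Among related lists described below, this held for 13 of 15 genes of pyruvate dehydrogenase and the tricarboxylic acid cycle. It also held for 4 of 4 leucine branch genes, 7 of 9 of the shared steps, 8 of 11 entry genes and 7 of 10 exit genes. The mutase list (4 of 12) and the regulators (5 of 11) had smaller shares.

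**Figure D1:**
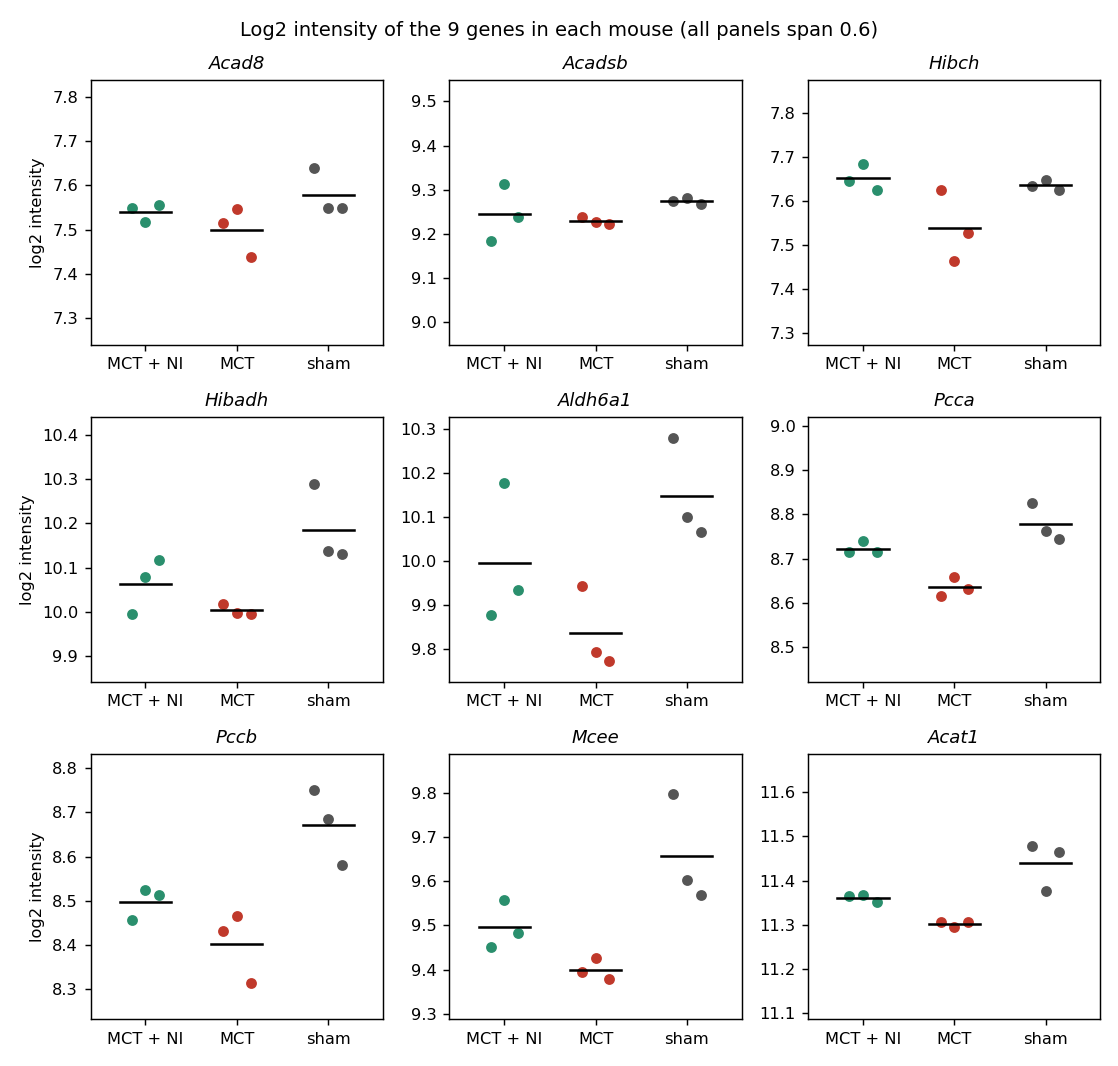
Log2 intensity (vertical axes, each with its own range) of the 9 genes in every mouse, with MCT + NI, MCT and sham from left to right. Points are mice and horizontal lines are group means (n = 3). All 3 MCT mice lie below all 3 sham mice for every gene but Hibch.

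The valine branch begins with Acad8 (chr9:26974138-26999571), isobutyryl-CoA dehydrogenase. Its level was 7.55, 7.52 and 7.56 in MCT + NI mice, 7.51, 7.55 and 7.44 in MCT mice and 7.64, 7.55 and 7.55 in sham mice. The highest MCT mouse (7.547) was just below the lowest sham mice (7.549), so that the groups were apart by less than the spread within either. The difference between MCT and sham mice was -0.08 ± 0.048 (SE, adjusted p = 0.412).

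Hibch (chr1:52845038-52920986) hydrolyses 3-hydroxyisobutyryl-CoA and so releases free 3-hydroxyisobutyrate, which can leave the cell. Its level was 7.65, 7.68 and 7.62 in MCT + NI mice, 7.62, 7.46 and 7.53 in MCT mice and 7.63, 7.65 and 7.62 in sham mice. One mouse of each group had the same value (7.625), and MCT mouse 641 was the lowest of all. The difference was -0.10 ± 0.049 between MCT and sham mice (SE, adjusted p = 0.327).

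Hibadh (chr6:52546230-52640300) oxidises 3-hydroxyisobutyrate to methylmalonate semialdehyde. Levels of 10.00, 10.08 and 10.12 were measured in MCT + NI mice, 10.02, 10.00 and 9.99 in MCT mice and 10.29, 10.14 and 10.13 in sham mice. The MCT mice lay within a narrow band below the sham mice, among which mouse 620 stood highest. The difference between MCT and sham mice was -0.18 ± 0.050 (95% interval -0.29 to -0.07) and its adjusted p of 0.069 missed the threshold. The other probe sets of Hibadh were dim, at means of 4.83 and 4.50 against 10.08 for the one used.

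Aldh6a1 (chr12:84430717-84451024) turns methylmalonate semialdehyde into propionyl-CoA and also serves thymine breakdown. Its level was 9.88, 10.18 and 9.93 in MCT + NI mice, 9.94, 9.79 and 9.77 in MCT mice and 10.28, 10.10 and 10.07 in sham mice. MCT and sham mice were apart, while MCT + NI mouse 617 lay among the sham mice and the other MCT + NI mice did not. The mean was 0.81-fold that of sham mice in MCT mice (-0.31 ± 0.087, 95% interval -0.51 to -0.11, adjusted p = 0.078), the widest difference of the 9 with the largest standard error.

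In the isoleucine branch, Acadsb (chr7:131410601-131446211), the short branched-chain acyl-CoA dehydrogenase, was almost flat. It measured 9.18, 9.31 and 9.24 in MCT + NI mice, 9.24, 9.23 and 9.22 in MCT mice and 9.27, 9.28 and 9.27 in sham mice. MCT mice lay just below sham mice and MCT + NI mice on both sides of them. The difference between MCT and sham mice was -0.05 ± 0.038 (SE, 95% interval -0.13 to 0.04, adjusted p = 0.562).

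Acat1 (chr9:53580522-53610350), the mitochondrial thiolase that splits the last isoleucine intermediate into propionyl-CoA and acetyl-CoA, also works in ketone body use. Its level was 11.36, 11.37 and 11.35 in MCT + NI mice, 11.31, 11.30 and 11.31 in MCT mice and 11.48, 11.38 and 11.47 in sham mice. The MCT + NI and MCT mice each lay within 0.02 of one another, and the 3 groups did not overlap. The highest MCT + NI mouse (11.368) was just below the lowest sham mouse (11.3765). Acat1 fell by 0.14 ± 0.031 in MCT mice compared to sham mice (95% interval of the difference -0.21 to -0.07, 0.91-fold, adjusted p = 0.0337).

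Both branches meet at propionyl-CoA carboxylase, whose biotin-carrying alpha subunit is encoded by Pcca (chr14:122484365-122889944). Pcca measured 8.71, 8.74 and 8.71 in MCT + NI mice, 8.62, 8.66 and 8.63 in MCT mice and 8.83, 8.76 and 8.75 in sham mice. The 3 groups did not overlap, with MCT + NI mice between the others. The highest MCT + NI mouse (8.740) was just below the lowest sham mouse (8.745). The difference between MCT and sham mice was -0.14 ± 0.036 (95% interval -0.22 to -0.06) with an adjusted p of 0.053.

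Pccb (chr9:100982032-101034940) encodes the beta subunit, which carries the carboxyltransferase site. Its level was 8.46, 8.52 and 8.51 in MCT + NI mice, 8.43, 8.46 and 8.31 in MCT mice and 8.75, 8.69 and 8.58 in sham mice. MCT and MCT + NI mice all lay below all sham mice. Pccb fell by 0.27 ± 0.057 in MCT mice compared to sham mice (95% interval of the difference -0.40 to -0.14, 0.83-fold, adjusted p = 0.0248).

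Mcee (chr7:64392622-64412121) is methylmalonyl-CoA epimerase, which turns the product of the carboxylase into the form that the mutase accepts. It measured 9.45, 9.56 and 9.48 in MCT + NI mice, 9.40, 9.43 and 9.38 in MCT mice and 9.80, 9.60 and 9.57 in sham mice. The 3 groups did not overlap, and sham mouse 620 stood well above the rest. The highest MCT + NI mouse (9.557) was just below the lowest sham mouse (9.569). Mcee fell by 0.26 ± 0.060 in MCT mice compared to sham mice (95% interval of the difference -0.39 to -0.12, 0.84-fold, adjusted p = 0.0375).

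The 3 calls rested on small margins. Pccb was no longer called without sham mouse 620 or 624 or MCT mouse 640 or 644 (adjusted p = 0.0656 to 0.0805). Mcee was not called when MCT + NI mouse 615 or 619, which act only through the shared spread, sham mouse 624 or any of the MCT mice was left out (adjusted p = 0.0566 to 0.118). Acat1 lost its call when either of these MCT + NI mice, sham mouse 620 or 625 or 1 of the MCT mice was left out (adjusted p = 0.0544 to 0.103). Without sham mouse 625 the calls were Pccb and Mcee, and without MCT mouse 640 or 644 none of the 9 was called. The difference of each of the 9 genes stayed negative in all of these fits. After quantile normalization of the genes tested, Acat1 was at -0.080 with an adjusted p of 0.174, while Pccb and Mcee kept their calls.

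**Figure D2:**
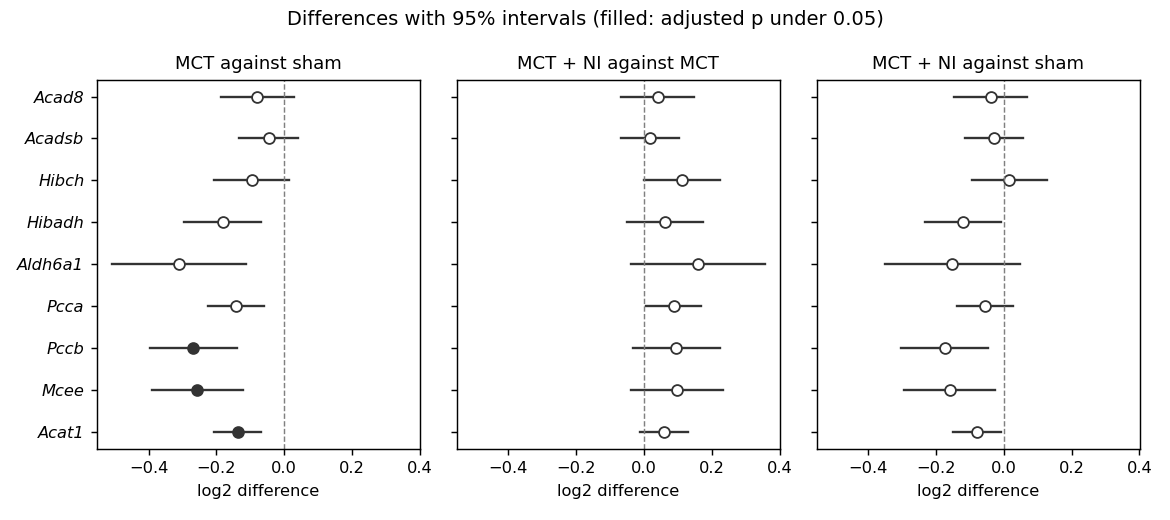
Log2 difference of each gene between the groups of each comparison (horizontal axis), with its 95% interval from the limma fit across all genes (n = 3 mice per group). The intervals of Hibadh, Aldh6a1, Pcca, Pccb, Mcee and Acat1 lie below 0 for MCT against sham mice.

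The diet was then examined by comparing MCT + NI mice with MCT mice. The mean of each of the 9 genes was higher in MCT + NI mice, by 0.02 to 0.16 with a median of 0.09, and a positive difference was found for 47.6% of all genes. Among lists described below, the mean was also higher for 15 of 15 genes of pyruvate dehydrogenase and the tricarboxylic acid cycle. It was higher for 4 of 4 leucine branch genes, 8 of 9 of the shared steps and 7 of 11 entry genes. Of the cell markers, 13 of 13 for cardiomyocytes were higher, while 8 of 8 for fibroblasts and 7 of 8 for macrophages were lower. A uniform direction was thus not particular to the 9 genes. None of the 9 was called, and the background was 0% of all genes, since no gene on the array passed the adjusted threshold in this comparison (545 of 18820 had an unadjusted p under 0.05). Of the 9 genes, 2 had an unadjusted p under 0.05 and a higher mean, against 1.59% of all genes. These were Pcca (0.09 ± 0.036, 95% interval 0.0056 to 0.17) and Hibch (0.11 ± 0.049, 95% interval 0.0013 to 0.22), each with an adjusted p of 1 in the limma fit.

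All MCT + NI mice were above all MCT mice for 3 of the 9 (Pcca, Mcee and Acat1), against 3.11% of all genes. Aldh6a1 had the widest mean difference (0.16 ± 0.087), with an interval of -0.04 to 0.36 that covers 0. The intervals reached from -0.03 to 0.22 for Pccb, from -0.04 to 0.23 for Mcee and from -0.01 to 0.13 for Acat1. For Acadsb the difference was 0.02 (95% interval -0.07 to 0.10). With 3 mice per group, differences of this size could not be told from 0 once all genes were taken into account.

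MCT + NI mice were also set against sham mice, a comparison that shares the sham mice with the first one and the MCT + NI mice with the second. None of the 9 was called, against 1.75% of all genes lower and 4.52% higher. The mean was below that of sham mice for 8 of the 9, by 0.03 to 0.17, and above it for Hibch by 0.02 (95% interval -0.09 to 0.13). Pccb differed by -0.17 ± 0.057 (adjusted p = 0.123), Mcee by -0.16 ± 0.060 (adjusted p = 0.178) and Acat1 by -0.08 ± 0.031 (adjusted p = 0.208). MCT + NI mice lay wholly below sham mice for 5 of the 9 (Hibadh, Pcca, Pccb, Mcee and Acat1), against 10.3% of all genes. The gap between the groups was narrow for all of these but Pccb.

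For the 3 genes called in MCT mice, the values of the comparisons stand as follows. Pccb was 0.27 below sham mice in the MCT group and 0.17 below them in the MCT + NI group. Mcee was 0.26 below sham mice in MCT mice and 0.16 below them in MCT + NI mice. For Acat1 these distances were 0.14 in MCT mice and 0.08 in MCT + NI mice. The direct contrasts of MCT + NI with MCT mice (0.09, 0.10 and 0.06) did not pass the test, so a smaller distance under the intervention was not shown.

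The order of the mice within each group was also recorded. MCT + NI mouse 617 was the highest of its group for 7 of the 9 and mouse 615 the lowest for 5. MCT mouse 644 was the lowest of its group for 6 and the highest for 1, while mice 640 and 641 were each the highest for 4. Sham mouse 620 was the highest sham mouse for 7 of the 9 and sham mouse 625 the lowest for 7.

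The mean of the 9 genes, each taken relative to its own sham mean, was -0.125, -0.046 and -0.093 in MCT + NI mice 615, 617 and 619. It was -0.143, -0.166 and -0.198 in MCT mice 640, 641 and 644, and 0.067, -0.025 and -0.041 in sham mice 620, 624 and 625. The 3 MCT mice were thus lowest, and MCT + NI mouse 617 came within 0.01 of the lowest sham mouse.

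**Figure D3:**
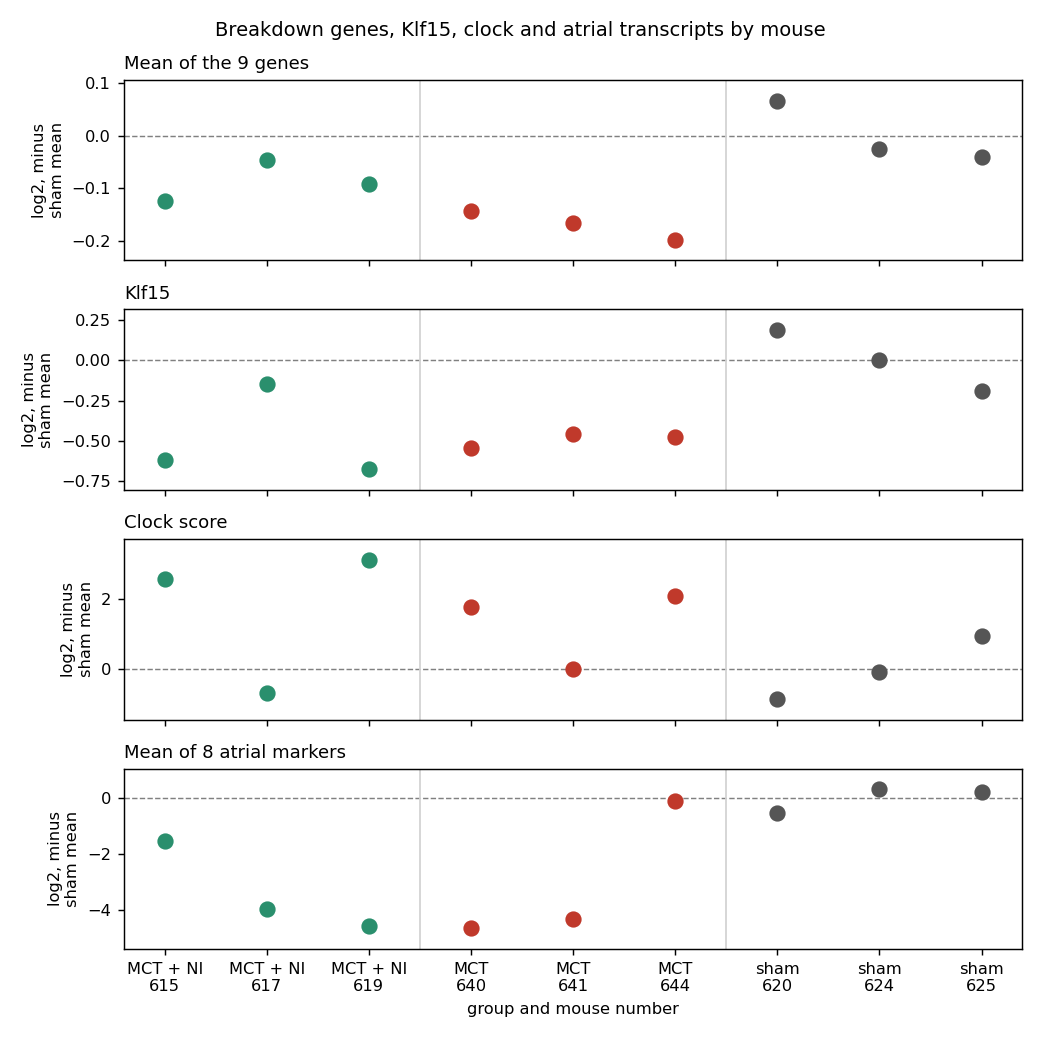
Per-mouse means relative to sham (log2 scale) of the 9 genes, Klf15, the clock score and the atrial markers, from top to bottom, for MCT + NI, MCT and sham mice from left to right. Each point is 1 mouse. MCT + NI mouse 617 has the highest mean of the 9 genes among treated mice and the lowest clock score among them.

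Cell makeup and sampling also differed between mice. In bulk tissue, fewer cells of a type and less RNA per cell cannot be told apart. The mean of 13 cardiomyocyte markers was near 0, at 0.02 to 0.05 in MCT + NI mice, -0.03 to 0.01 in MCT mice and 0 in sham mice. Of these markers 7 were higher and 6 lower in MCT mice, and the calcium release channel gene Ryr2 was called lower (-0.17, adjusted p = 0.0234). The 8 fibroblast markers averaged 0.23 to 0.61 in MCT + NI mice, 0.50 to 0.53 in MCT mice and -0.11 to 0.18 in sham mice, and 4 of them rose in MCT mice compared to sham mice. Of 8 smooth muscle and pericyte markers 5 rose in MCT mice, of 8 endothelial markers 3 rose and 1 fell, of 8 macrophage markers 3 rose and 1 fell, and none of 8 adipocyte or 3 erythroid markers was called. Atrial markers averaged -1.52, -3.94 and -4.56 in MCT + NI mice 615, 617 and 619, -4.65, -4.31 and -0.09 in MCT mice 640, 641 and 644, and -0.52, 0.31 and 0.22 in sham mice. The part of the nonmuscle markers in the result was not tested.

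With the atrial marker mean as a covariate only Pccb was called among the 9. The differences between MCT and sham mice were then -0.36 ± 0.062 for Pccb (adjusted p = 0.0264), -0.30 ± 0.079 for Mcee (adjusted p = 0.0985) and -0.14 ± 0.043 for Acat1 (adjusted p = 0.167), with larger standard errors than before. All sham mice were high in atrial markers. All treated mice but MCT mouse 644 and MCT + NI mouse 615 were far lower. The covariate and the group can thus hardly be told apart, and the part of atrial tissue in the differences was not tested. Calls over all genes dropped to 493 in that fit, against 1179 without the covariate. A clock score (3 activators minus 7 of their targets) was 2.55, -0.69 and 3.11 in MCT + NI mice 615, 617 and 619, 1.76, 0 and 2.07 in MCT mice 640, 641 and 644, and -0.86, -0.08 and 0.94 in sham mice 620, 624 and 625. In each group the mouse with the lowest score had a higher mean of the 9 genes than the mouse with the highest score, though in the MCT group mouse 640, with a score between these, had the highest mean. With this score as a covariate none of the 9 was called, at -0.23 for Pccb (adjusted p = 0.0577), -0.21 for Mcee (adjusted p = 0.0749) and -0.14 for Acat1 (adjusted p = 0.0746). The hour at which tissue was taken is not given in the sources used here.

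Steps upstream and downstream were followed through lists of pathway genes. At the entry, 1 of 11 genes rose and 3 fell in MCT mice compared to sham mice. Slc7a5, the plasma membrane carrier of large neutral amino acids, was at 6.31, 6.20 and 6.47 in MCT + NI mice, 6.41, 6.18 and 6.24 in MCT mice and 5.41, 5.62 and 5.62 in sham mice. All 6 treated mice were above all sham mice, and Slc7a5 rose by 0.72 in MCT mice (adjusted p = 0.00278) and by 0.78 in MCT + NI mice (adjusted p = 0.00203), each compared to sham mice. Its level in sham mice was near the median of the genes tested, which was 5.36 to 5.41 in those mice. Slc3a2 of the same list went the other way without being called (-0.14 in MCT and -0.20 in MCT + NI mice, compared to sham mice). Transport of amino acids was not measured.

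Ppm1k, the phosphatase that activates the branched-chain ketoacid dehydrogenase, was at 8.82, 8.94 and 8.78 in MCT + NI mice, 8.95, 8.93 and 8.73 in MCT mice and 9.38, 9.33 and 9.27 in sham mice. It was lower than sham in all 6 treated mice, by -0.46 in MCT mice (adjusted p = 0.00472) and -0.48 in MCT + NI mice (adjusted p = 0.00391). Bckdk, the kinase that inactivates the same complex, fell by 0.22 in MCT mice (adjusted p = 0.0321) and by 0.20 in MCT + NI mice (adjusted p = 0.0423), compared to sham mice. Bckdhb, a subunit of its decarboxylase, fell by 0.44 in MCT mice compared to sham mice (adjusted p = 0.0429). Slc7a5 and Ppm1k were called in both comparisons with any 1 mouse left out, whereas Bckdk and Bckdhb were called in 2 of 9 such fits of MCT against sham mice, and Bckdk in 2 of 9 of MCT + NI against sham mice (adjusted p up to 0.152).

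In the leucine branch, 2 of 4 genes fell in MCT mice compared to sham mice and none rose. These were Ivd, isovaleryl-CoA dehydrogenase (-0.25, adjusted p = 0.0274), and Auh, methylglutaconyl-CoA hydratase (-0.27, adjusted p = 0.0323). Of 9 genes listed for the shared hydratase, dehydrogenase and thiolase steps, which also included the aminotransferase gene Abat, 2 fell and none rose. Acaa2, a mitochondrial thiolase of fatty acid oxidation, was at 11.18, 11.22 and 11.17 in MCT + NI mice, 11.07, 11.16 and 11.04 in MCT mice and 11.53, 11.34 and 11.50 in sham mice. It fell by 0.37 in MCT mice (adjusted p = 0.00369) and by 0.27 in MCT + NI mice (adjusted p = 0.0179), compared to sham mice. Hadh, hydroxyacyl-CoA dehydrogenase, fell by 0.29 in MCT mice compared to sham mice (adjusted p = 0.00664). Acaa2 and Hadh kept their calls for MCT against sham mice with any 1 mouse left out, while Ivd was called in 5 and Auh in 2 of those 9 fits. For MCT + NI against sham mice, Acaa2 was called in 5 of 9 and lost without sham mouse 620 or 625 or MCT + NI mouse 615 or 619 (adjusted p up to 0.077).

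Beyond Mcee, Mmut, the cobalamin-dependent mutase that forms succinyl-CoA, was at 9.40, 9.45 and 9.28 in MCT + NI mice, 9.36, 9.43 and 9.43 in MCT mice and 9.61, 9.57 and 9.62 in sham mice. All treated mice were below all sham mice. Mmut fell by 0.19 in MCT mice (adjusted p = 0.047) and by 0.22 in MCT + NI mice (adjusted p = 0.027), compared to sham mice, and was the only 1 of 12 genes of the mutase, cobalamin and biotin list to be called in either. Left-out fits called it in 2 of 9 for MCT mice and 4 of 9 for MCT + NI mice.

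Of 10 genes for the exit to succinate and the use of acetyl-CoA, 2 fell and none rose in MCT mice compared to sham mice. Suclg1, a subunit of succinyl-CoA ligase, fell by 0.21 (adjusted p = 0.0398) and Acss1, mitochondrial acetyl-CoA synthetase, by 0.37 (adjusted p = 0.0302). Calls were kept in 1 of the 9 left-out fits for Suclg1 and in 3 for Acss1. In MCT + NI mice compared to sham mice, Acss1 fell by 0.37 as well (adjusted p = 0.0275, called in 5 of 9 left-out fits).

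Bdh1, the ketone body enzyme that interconverts hydroxybutyrate and acetoacetate, ran the other way. It measured 8.07, 8.02 and 8.11 in MCT + NI mice, 7.26, 7.91 and 7.60 in MCT mice and 7.26, 6.78 and 6.82 in sham mice. MCT + NI mice were above both other groups. Bdh1 rose by 1.12 in MCT + NI mice compared to sham mice (adjusted p = 0.00484), while the difference of 0.64 between MCT and sham mice missed the threshold (adjusted p = 0.0602), as did that of 0.48 between MCT + NI and MCT mice (adjusted p = 1).

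Among 11 reported regulators, 2 fell in MCT mice compared to sham mice and none rose. These were the estrogen-related receptors Esrrb (-0.27, adjusted p = 0.0358) and Esrrg (-0.37, adjusted p = 0.0452), of which Esrrg drives genes of oxidative metabolism. Esrra of the same family was not called (-0.10, adjusted p = 0.200). Left-out fits of MCT against sham mice called Esrrb in 2 of 9 and Esrrg in 1 of 9. Esrrg was also lower in MCT + NI mice than in sham mice (-0.42, adjusted p = 0.0254, called in 5 of 9 left-out fits).

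Klf15, a clock-linked factor that in mouse muscle and heart drives branched-chain amino acid breakdown, was at 6.86, 7.33 and 6.80 in MCT + NI mice, 6.94, 7.02 and 7.00 in MCT mice and 7.66, 7.48 and 7.29 in sham mice. MCT mice were below all sham mice, and MCT + NI mouse 617 lay among the sham mice. The differences from sham mice, -0.49 in MCT mice (adjusted p = 0.082) and -0.48 in MCT + NI mice (adjusted p = 0.0882), did not pass the test.

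Of 15 genes of pyruvate dehydrogenase and the tricarboxylic acid cycle, 3 fell in MCT mice compared to sham mice and none rose. These were Pdhb, a pyruvate dehydrogenase subunit (-0.18, adjusted p = 0.029), the malate dehydrogenase Mdh2 (-0.13, adjusted p = 0.0378) and Idh3g, a subunit of isocitrate dehydrogenase (-0.15, adjusted p = 0.0467). Left-out fits called Pdhb in 5 of 9, Mdh2 in 1 of 9 and Idh3g in 3 of 9. In none of these lists was a gene called between MCT + NI and MCT mice.

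**Figure D4:**
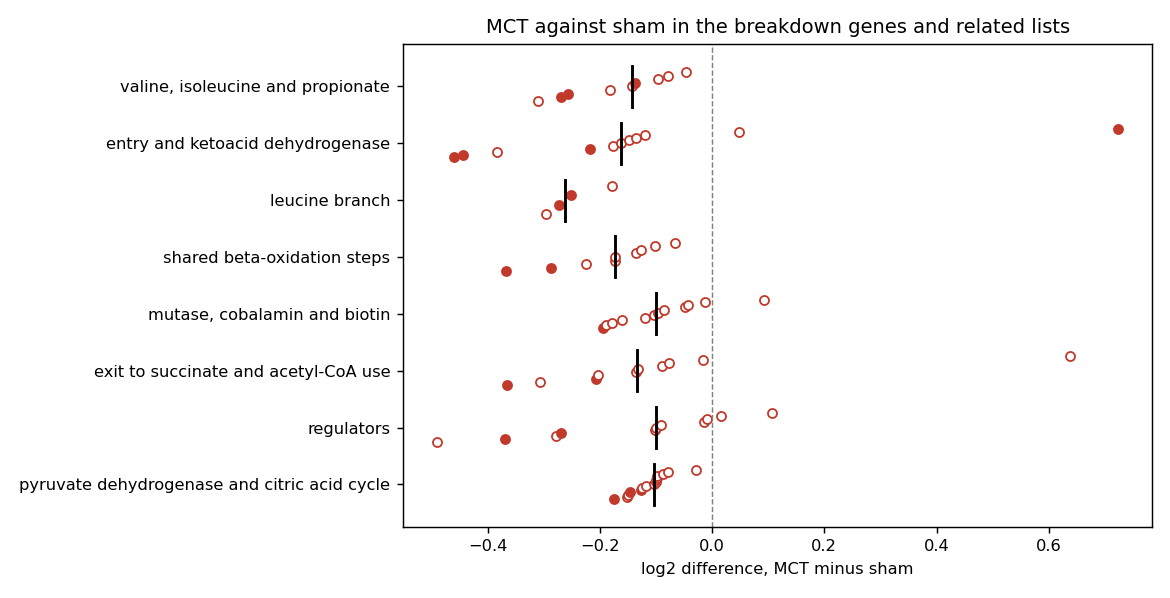
Log2 difference between MCT and sham mice of each gene in the lists named in the text (horizontal axis), 1 row per list, with filled points for genes at an adjusted p under 0.05 and a bar at the list median. All 8 medians, from -0.26 for the leucine branch to -0.10 for the regulators and the mutase list, lie below that of all genes (-0.02).

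The genes whose levels over the 9 mice ran most like the mean of Pccb, Mcee and Acat1 were Mdh2 (Pearson r = 0.995), Hadh (0.989), Ndrg2 (0.985), Kiz (0.975) and Mreg (0.967). These values describe the same 9 arrays, group differences included. Kiz (-0.37, adjusted p = 0.00597) and Mreg (-0.42, adjusted p = 0.0309) fell in MCT mice compared to sham mice, and the difference of -0.11 for Ndrg2 missed the threshold (adjusted p = 0.0699).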

How the data were processed

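Right ventricular RNA of 9 mice, 3 per group and each a separate animal by its mouse number, was hybridised to Affymetrix mouse gene 1.1 ST arrays. The authors deposited log2 intensity values made by RMA, for which the submitters' processing notes give no version. Per the methods, probes were regrouped by Entrez gene, whereas the table holds 35556 manufacturer's probe set numbers. Of these, 21218 carry 1 gene, 1881 several and 12457 none in the platform annotation. The brightest probe set per gene was kept, giving 18820 genes. Array medians over all probe sets lay between 4.77 and 4.79, and many genes had equal values in several mice. The number of arrays limits the precision. Scans were not used here.

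Groups were compared in limma 3.58.1 (R 4.3.3), with 1 mean per group, all 9 mice, an intensity trend and two-sided tests. P-values were adjusted by Benjamini-Hochberg over all genes, and a gene was called at an adjusted p under 0.05. No further normalization or filter was applied. The step was tested on simulated data with independent normal noise. The smallest simulated difference was above that of most of the 9 genes, so this test does not cover differences as small as theirs.

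The genes, the related lists (160 of 171 symbols measured) and the rule for named genes were chosen with earlier results of these data known. The rule takes all 9 genes, the called genes of the pathway lists, pathway genes with a difference over 0.5 and the 5 genes that correlate best with the called ones. Klf15 met none of these conditions and was picked by hand as a reported regulator. Slc3a2 and Esrra did not meet them either and were named beside called genes of their lists. Marker lists are given as counts. Alternatives covered the empirical Bayes step, the choice of probe set, the filter, the scaling, the array weights, 2 covariates, the threshold and each mouse left out. The fit without both MCT mouse 644 and MCT + NI mouse 615, whose atrial markers set them apart from the other treated mice, was added after seeing the data.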

Additional observations from a re-analysis of the deposited data

How the results depend on the processing

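Of the 9 genes, 3 were called between MCT and sham mice, and this number moved with the setting. It was 5 with arrays centred on their medians (3.78% of genes called lower) and 5 with only genes above the median intensity (3.88%). It was 1 with the atrial marker mean, hardly separable from the group, as a covariate (Pccb -0.36, Mcee -0.30, Acat1 -0.14, 493 calls over all genes). It was 0 without the intensity trend, with only the 2 groups compared, with the clock score as a covariate, or without MCT mouse 644 and MCT + NI mouse 615, where Pccb was at -0.22, Mcee at -0.25 and Acat1 at -0.14. Acat1 alone was lost after quantile normalization (-0.080, adjusted p = 0.174). Leaving out 1 mouse gave 0 to 4. At an unadjusted p under 0.05 or under 0.01 it was 6, all lower, where 1720 of 18820 genes were lower under 0.05 and 1851 differed in either direction under 0.01. The difference between MCT and sham mice was negative for each of the 9 genes in every alternative run. Between MCT + NI and MCT mice the count was 0, with 2 at an unadjusted p under 0.05, both higher, as were 300 of all genes, and for MCT + NI against sham mice it was 0, with 4 at that threshold, all lower, as were 1763 of all 18820 genes. Over all genes, 303 of 1179 calls between MCT and sham mice were lower, and 711 of 1470 with arrays centred on their medians over the genes tested, which lay between 5.44 and 5.46 in MCT mice and between 5.36 and 5.41 in sham mice.

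Small differences changed sign. Between MCT + NI and MCT mice, Acadsb ranged over -0.017 to 0.047 with 1 mouse left out and was negative without MCT + NI mouse 617, and Hibadh at -0.051 with the mean of its probe sets and -0.030 with the next brightest one, both of which bring in dim probe sets. Between MCT + NI and sham mice, Acadsb was at 0.0013 with the clock score as a covariate and 0.0014 without MCT + NI mouse 615, with or without MCT mouse 644 (range -0.063 to 0.0014 with 1 mouse left out). Hibch was at -0.0012 after quantile normalization, -0.035 with centred arrays and -6.57e-05 without MCT + NI mouse 617 (range -6.57e-05 to 0.030 with 1 mouse left out). The cause of these sign changes was not tested. No paired analysis was possible because mouse numbers are not shared between groups.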
